A study of Gallus gallus with 20 samples.

Results

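The 8 genes described here build fatty acids from acetyl-CoA in the liver or activate that synthesis: the enzymes ACLY, ACSS2, ACACA, FASN and ME1, the paralogs THRSP and THRSPB, and the transcription factor MLXIPL. They are listed by name for these roles, and the rule that lists them uses no measured value. The list was nevertheless chosen with earlier results of these data known. All 8 were among the 21749 genes in the table, and all 8 were among the 12808 genes that reached at least 1 TPM in at least 4 libraries and were tested. TPM, transcript abundance corrected for transcript length and scaled to a fixed total per library, allows levels of genes to be compared.

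In birds the liver is the main site of fatty acid synthesis, and in the laying hen it supplies the lipid that is packed with vitellogenin and apolipoproteins and carried to the growing yolk. ACLY splits cytosolic citrate into acetyl-CoA, and ACSS2 makes acetyl-CoA from acetate. ACACA carboxylates acetyl-CoA to malonyl-CoA, the committed step, FASN joins these units into palmitate, and ME1 (malic enzyme) provides NADPH for the reductions. MLXIPL (ChREBP) is a carbohydrate-responsive activator of these enzyme genes. THRSP (Spot 14) is a small nuclear and cytosolic protein, induced by thyroid hormone and carbohydrate, that is known as a promoter of lipogenic gene expression. Chickens carry it as a pair of neighbouring paralogs.

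The study profiled liver mRNA in 20 libraries from hens of the Guangxi Ma breed, a local chicken of China. There were 4 libraries in each of 5 groups: age 32 weeks, age 50 weeks with high laying performance, age 50 weeks with low laying performance, age 72 weeks with high laying performance and age 72 weeks with low laying performance. One label field calls the week 32 hens high layers and the study design gives them no class, so that group goes by its age. No treatment and no genetic change is labelled in any group, and whether each library came from a hen of its own is not stated. The p-values therefore measure the spread between these libraries, which may be technical.

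Summed over the table, libraries held 764047 to 852815 TPM, and the read depth behind them is unknown. Spearman correlations between libraries ranged from 0.898 to 0.965. The 3 libraries least like the others were replicate 1 of week 50 high layers, replicate 3 of week 50 low layers and replicate 2 of week 72 low layers, with median correlations to the rest of 0.928, 0.923 and 0.923. FASN was at the lowest value of its group in each of these 3 libraries. Its differences between week 72 low layers and another group are therefore given with and without them. The other differences of FASN are given with all libraries and not without these 3. In the 3, in the order above, the rank correlation of gene deviations with gene span was -0.304, -0.216 and -0.154. Over all libraries it ran from -0.304 to 0.288, the highest being week 32 replicate 1. Week 50 low replicate 4, not among the 3, was at -0.164. The genes described here span 715 bases (THRSPB) to 157484 bases (ME1). The part of gene span in their differences was not tested. All 12 hepatocyte markers were above 0 in every group, with summed levels of 59441 to 149646 TPM, as the labelled tissue has. Because whole liver was sampled, fewer cells of a type and less RNA per cell cannot be told apart.

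ACLY, at chromosome 27, positions 4699738 to 4730001 of the GRCg7b build, had the narrowest range of the 8 genes, 2.82-fold between the lowest and the highest library. At week 32 its 4 libraries, in replicate order, held 398, 525, 357 and 391 TPM. The week 50 high libraries held 410, 531, 378 and 385 TPM, and the week 50 low libraries 541, 470, 379 and 353 TPM. These 3 groups overlapped closely, with means of 418 ± 73.8, 426 ± 71.2 and 436 ± 86.6 TPM (SD, n = 4 each). The week 72 high libraries held 295, 288, 385 and 372 TPM, and the week 72 low libraries 227, 192, 380 and 349 TPM. The means at week 72 were lower, 335 ± 50.7 TPM in high layers and 287 ± 91.4 TPM in low layers (SD, n = 4), and in low layers replicates 1 and 2 lay below every other library of the series. The gene TTC25 overlaps ACLY by 5249 bases.

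ACSS2, at chromosome 20, positions 3002622 to 3034471, was lower than ACLY in every library. At week 32 it was at 33.8, 89.9, 37.0 and 112 TPM, at week 50 in high layers at 78.9, 74.3, 26.3 and 26.6 TPM, and at week 50 in low layers at 40.0, 49.5, 43.4 and 42.2 TPM. The week 72 high libraries gave 172, 72.9, 49.4 and 27.4 TPM and the week 72 low libraries 73.8, 59.997, 44.5 and 60.1 TPM. The libraries within a group differed more than the groups did: groups accounted for 10.7% of the variance of ACSS2 on the log2(TPM + 1) scale, the smallest share among the 8 genes. Both the highest value of the series, 172 TPM, and 1 of the lowest, 27.4 TPM, came from week 72 high layers.

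ACACA, acetyl-CoA carboxylase, at chromosome 19, positions 8928230 to 9039334, was at a similar level in 4 of the 5 groups and lower in week 72 low layers. Its values were 136, 243, 145 and 143 TPM at week 32, 177, 190, 115 and 147 TPM in week 50 high layers, and 147, 157, 128 and 198 TPM in week 50 low layers. The week 72 high libraries held 140, 159, 119 and 158 TPM. The week 72 low libraries held 32.9, 82.2, 119 and 87.6 TPM. The group means ran from 167 ± 51.0 TPM at week 32 through 158 ± 33.5, 158 ± 29.4 and 144 ± 18.9 TPM to 80.5 ± 35.7 TPM in week 72 low layers (SD, n = 4 each). In week 72 low layers 3 of the 4 libraries lay under every other library of the series, and replicate 3, at 119 TPM, lay within the range of the other groups. The neighbouring gene TADA2A overlaps the end of ACACA by 225 bases.

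FASN, fatty acid synthase, at chromosome 18, positions 5537180 to 5573293, had the widest range of the 8 genes, 20.9-fold. Week 32 libraries held 332, 476, 491 and 618 TPM, week 50 high libraries 129, 383, 368 and 428 TPM, and week 50 low libraries 588, 379, 263 and 655 TPM. Week 72 high libraries held 238, 211, 355 and 324 TPM, and week 72 low libraries 90.6, 31.4, 370 and 392 TPM. Week 72 low layers thus held 2 libraries far below the other 2, and their mean of 221 ± 187 TPM (SD, n = 4) lay between the pairs. Within groups, the SD of FASN on the log2(TPM + 1) scale was larger than that of 96.1% of the tested genes, and those of ME1 and ACSS2 were larger than 95.3% and 92.1%. ACLY, by contrast, was steadier than most, at 32.4%.

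ME1, at chromosome 3, positions 77460209 to 77617692, spanned 10.2-fold. It was at 43.8, 121, 91.6 and 86.4 TPM at week 32, at 34.8, 43.5, 45.5 and 143 TPM in week 50 high layers, and at 41.9, 95.8, 41.9 and 211 TPM in week 50 low layers. Week 72 high layers gave 51.9, 132, 270 and 82.8 TPM, and week 72 low layers 26.4, 54.5, 74.6 and 57.5 TPM. The 5 groups overlapped, and in each of the 2 week 50 groups replicate 4 was the highest library. The highest group mean, 134 ± 96.5 TPM in week 72 high layers, exceeded the lowest, 53.3 ± 19.95 TPM in week 72 low layers (SD, n = 4), by less than the larger of these SDs.

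MLXIPL, at chromosome 19, positions 702123 to 717310, was the lowest of the 8 genes on average, at 42.7 TPM over the 20 libraries. Its week 32 libraries held 34.04, 48.3, 25.7 and 18.8 TPM, its week 50 high libraries 52.7, 56.4, 45.5 and 55.6 TPM, and its week 50 low libraries 37.1, 42.8, 55.9 and 46.6 TPM. At week 72 it was at 29.1, 38.7, 66.7 and 33.2 TPM in high layers and at 30.5, 52.7, 45.7 and 37.2 TPM in low layers. The lowest group mean was that of week 32, 31.7 ± 12.7 TPM, and the highest that of week 50 high layers, 52.5 ± 4.94 TPM (SD, n = 4). MLXIPL protein is regulated by glucose metabolites and by moving into the nucleus, which mRNA levels do not measure.

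THRSP, at chromosome 1, positions 192753916 to 192755348, was among the most abundant transcripts of the liver, between the 17th and the 53rd highest of the tested genes in every library. The week 32 libraries held 1644, 3457, 3609 and 2249 TPM, the week 50 high libraries 2191, 1665, 2586 and 4762 TPM, and the week 50 low libraries 2171, 3446, 2722 and 5751 TPM. The week 72 high libraries held 2415, 4375, 4424 and 6765 TPM, and the week 72 low libraries 1909, 3438, 2794 and 1896 TPM. Group means lay between 2509 ± 748 TPM in week 72 low layers and 4495 ± 1779 TPM in week 72 high layers (SD, n = 4), and all groups overlapped.

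THRSPB, at chromosome 1, positions 192749541 to 192750255, lies 3660 bases from THRSP, with 0 annotated genes between them. Its transcript was far less abundant and followed another order of groups. The week 32 libraries held 20.7, 44.0, 54.4 and 43.8 TPM, and the week 50 high libraries 42.1, 81.3, 91.6 and 114 TPM. The week 50 low libraries held 128, 204, 178 and 191 TPM, all above every library of those 2 groups. The week 72 high libraries held 104, 44.1, 76.1 and 57.1 TPM, and the week 72 low libraries 44.997, 171, 90.6 and 53.5 TPM. From highest to lowest, the group means were 175 ± 33.2 TPM in week 50 low layers, 90.1 ± 57.6 TPM in week 72 low layers, 82.1 ± 29.9 TPM in week 50 high layers, 70.4 ± 26.2 TPM in week 72 high layers and 40.7 ± 14.2 TPM at week 32 (SD, n = 4). In this order the steps from the first to the second and from the fourth to the last group exceeded the larger SD of the 2 neighbours, and each pair of neighbours overlapped. Groups accounted for 63.1% of the variance of THRSPB on the log2(TPM + 1) scale, the largest share of the 8 genes, followed by ACACA at 55.7% and ACLY at 47.2%.

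**Figure D1:**
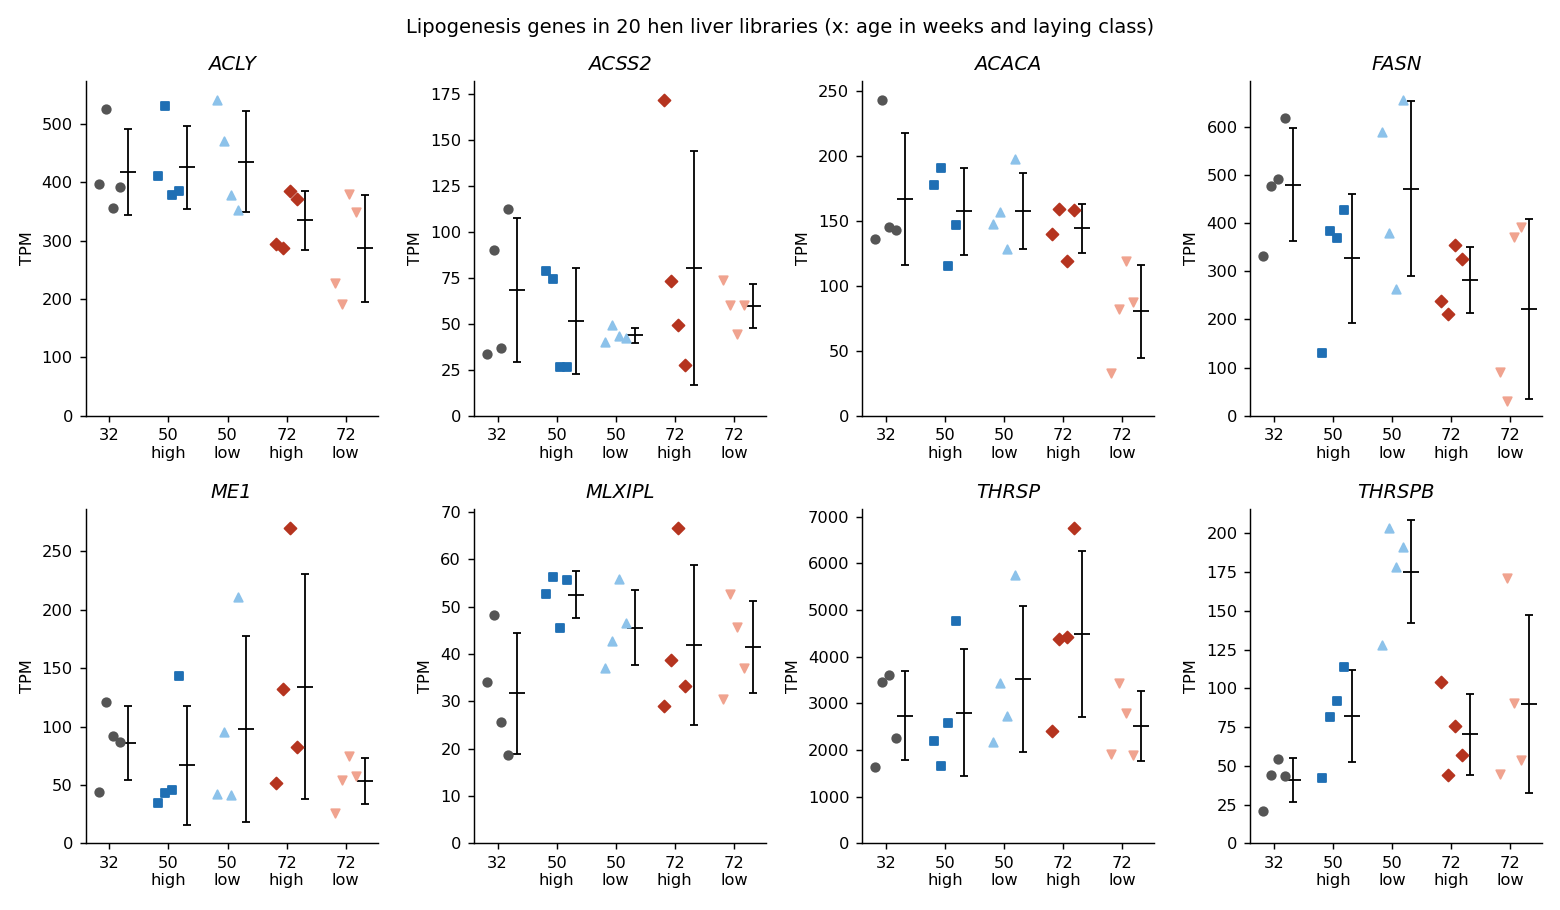
TPM (linear axis from 0) of the 8 genes in each library by group, with 1 point per library and a bar and whiskers for the mean ± SD of 4 libraries. ACACA is lowest in week 72 low layers, at 80.5 ± 35.7 TPM, THRSPB is highest in week 50 low layers, at 175 ± 33.2 TPM, and FASN in week 72 low layers splits into 2 low and 2 high libraries.

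Set against each other, THRSP exceeded THRSPB 15.3-fold to 118-fold in TPM, depending on the library. At week 32 the ratio was 79.6, 78.6, 66.4 and 51.3 in the 4 libraries, and in week 50 low layers it was 17.0, 16.9, 15.3 and 30.1. The 2 groups did not overlap, with mean ratios of 69.0 ± 13.2 and 19.8 ± 6.91 (SD, n = 4). Week 50 high layers averaged 35.7 ± 14.1, week 72 low layers 32.2 ± 9.38, and week 72 high layers, where the ratio ran from 23.1 to 118, 74.7 ± 42.6 (SD, n = 4). These are similar paralogs, and their split is uncertain as far as the authors' counting could assign a read to either copy.

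**Figure D2:**
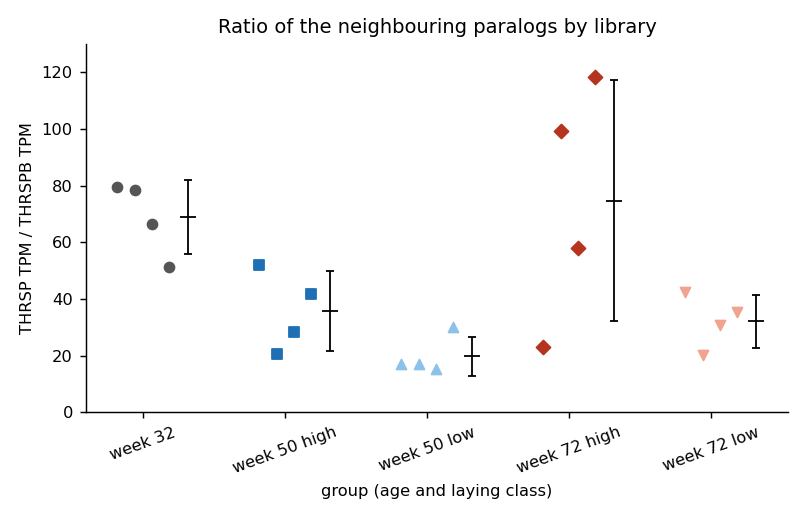
Ratio of THRSP TPM to THRSPB TPM (linear axis from 0) in each library by group, with 1 point per library and whiskers for the mean ± SD of 4 libraries. The week 32 libraries lie between 51.3 and 79.6, and the week 50 low libraries between 15.3 and 30.1.

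High and low layers were compared first at week 50. THRSPB was lower in high layers, 82.1 against 175 TPM, a 2.13-fold difference of the means, with no overlap between the 4 libraries of each group. On the log2(TPM + 1) scale this was -1.15 ± 0.39 (SE), with an unadjusted p of 0.00844 and an adjusted p of 1 in limma's moderated test with Benjamini-Hochberg adjustment over all tested genes. It was the single gene of the 8 with an unadjusted p under 0.05, and 0 of 8 were called at an adjusted p under 0.05, as were 0% of all 12808 tested genes. Over all tested genes, 0.976% had an unadjusted p under 0.05 and were lower, and 0.515% were lower with no overlap. THRSPB was lower by 0.85 ± 0.36 (SE) without the 3 libraries least like the others.

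The other 7 genes differed by less at week 50. FASN was at -0.57 ± 0.59, ME1 at -0.46 ± 0.56 and THRSP at -0.35 ± 0.38 in log2 difference of high minus low (SE). ACACA was at -0.01 ± 0.30 and ACLY at -0.02 ± 0.22, and MLXIPL was at 0.21 ± 0.27. ACSS2 was at 0.05 ± 0.48 and changed sign, to -0.02, when libraries were scaled by median ratios. The groups of each of these 7 genes overlapped. The median over the 8 genes was -0.19, against 0.05 over all tested genes.

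At week 72 the largest log2 differences of high minus low were ME1 at 1.14 ± 0.56, ACACA at 0.96 ± 0.30, FASN at 0.94 ± 0.59 and THRSP at 0.80 ± 0.38 (SE). ACACA was the single gene with an unadjusted p under 0.05 (0.00418, with an adjusted p of 0.609 in limma with Benjamini-Hochberg adjustment), while 3.65% of all tested genes reached that in the same direction. Its mean was 144 TPM in high layers against 80.5 TPM in low layers, and the groups overlapped through a single library of each, since both replicates numbered 3 were at 119 TPM. Without week 72 low replicate 3, ACACA was at 1.20 with an adjusted limma p of 0.0972, and FASN, at 1.40, and ME1, at 1.33, also passed the unadjusted threshold, with limma p-values of 0.0283 and 0.0401. That library held the highest ACACA and ME1 of its group, so leaving it out widens their differences. In that setting limma called 63 of the 12746 genes tested, against 1 of 12808 with all libraries. For THRSP with all libraries the unadjusted limma p was 0.0515 and for ME1 0.0538. The counterparts were small for ACLY, at 0.27 ± 0.22, ACSS2, at 0.13 ± 0.48, MLXIPL, at -0.03 ± 0.27, and THRSPB, at -0.22 ± 0.39 (SE).

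At an adjusted p under 0.05, limma called 0 of the 8 genes at week 72 and 0.00781% of all tested genes. The median over the 8 genes was 0.53, against 0.03 over all tested genes. Without the 3 libraries least like the others, FASN was at 0.22 ± 0.40, while ACACA was at 1.02 ± 0.34 and THRSP at 0.96 ± 0.43 with an unadjusted limma p of 0.0380 (SE). In that subset THRSPB and MLXIPL changed sign, to 0.15 and 0.09.

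The difference between the 2 laying contrasts, week 72 minus week 50, was tested directly. ACACA gave 0.97 ± 0.42 with an unadjusted limma p of 0.0317, and THRSP gave 1.14 ± 0.54 with an unadjusted limma p of 0.0486 (SE). ME1 was at 1.60 ± 0.79, FASN at 1.51 ± 0.83 and THRSPB at 0.93 ± 0.55, and each missed that threshold. ACLY was at 0.29 ± 0.31, ACSS2 at 0.08 ± 0.68 and MLXIPL at -0.24 ± 0.38. The 2 genes under that threshold became between 0 and 4 when 1 library was left out, and 1 (ACACA) without the 3 libraries least like the others. The adjusted limma p rounded to 1 for each of the 8 genes, and 0% of all tested genes were called. Of all tested genes, 1.23% had an unadjusted p under 0.05 in the direction of ACACA and THRSP. The median over the 8 genes was 0.95, against -0.01 over all tested genes.

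**Figure D3:**
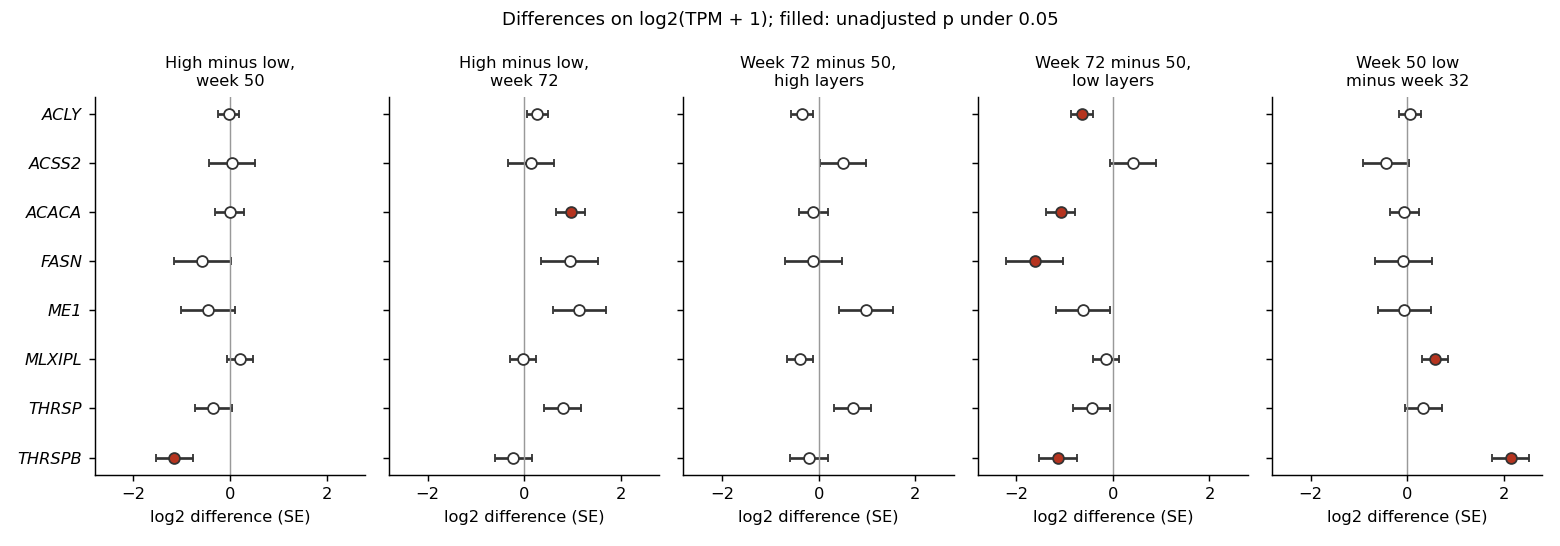
Log2 difference of TPM + 1 ± SE from the limma fit for the 8 genes, in panels for high minus low at each age, week 72 minus week 50 in each laying class and week 50 low minus week 32, with filled points for an unadjusted p under 0.05 and a line at 0. In week 72 against week 50 low layers, the points of ACACA, FASN, ACLY and THRSPB lie at -1.08, -1.62, -0.64 and -1.13.

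Age was compared within each laying class. In low layers 4 of the 8 genes had an unadjusted p under 0.05, and all 4 were lower at week 72: ACACA by 1.08 ± 0.30, FASN by 1.62 ± 0.59, THRSPB by 1.13 ± 0.39 and ACLY by 0.64 ± 0.22 on the log2 scale (SE). ACACA had the smallest adjusted limma p of the 4, 0.213, and was the single gene of the 8 whose groups did not overlap. Of all tested genes, 6.60% were lower at an unadjusted p under 0.05, 2.40% were lower with no overlap and 0.0390% were called. The other 4 genes were ME1 at -0.62 ± 0.56, THRSP at -0.44 ± 0.38, MLXIPL at -0.15 ± 0.27 and ACSS2 at 0.42 ± 0.48.

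No gene of the 8 was called in low layers with all 20 libraries. Without week 72 low replicate 3, ACACA was called, with a log2 difference of -1.32 and an adjusted limma p of 0.0432. In that setting 95 of the 12746 genes tested were called. The library left out held the highest ACACA of its group, so its removal widens the difference. ACACA was not called when any other single library was left out. FASN was at -1.15 ± 0.43 (SE) without the 3 libraries least like the others. The median over the 8 genes was -0.63, against -0.09 over all tested genes.

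In high layers none of the 8 genes had an unadjusted p under 0.05 between week 50 and week 72, while 4.59% of all tested genes did in either direction and 0% were called by limma. The largest log2 differences of week 72 minus week 50 were ME1 at 0.98 ± 0.56 and THRSP at 0.70 ± 0.38, and ACSS2 was at 0.50 ± 0.48 (SE). MLXIPL was at -0.39 ± 0.27, ACLY at -0.34 ± 0.22 and THRSPB at -0.21 ± 0.39. ACACA, at -0.11 ± 0.30, and FASN, at -0.11 ± 0.59, changed sign under median-ratio scaling, to 0.02 and 0.03. That scaling moved the median over all tested genes from -0.10 to 0.02 in this comparison. The median over the 8 genes was -0.11.

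The later groups were also set against week 32, and these 4 comparisons share the week 32 libraries. In week 50 low layers THRSPB was 4.31-fold higher by group means, or 2.14 ± 0.39 on the log2 scale (SE), with no overlap, an unadjusted limma p of 2.74e-05 and an adjusted p of 0.351. In week 50 high layers THRSPB was at 0.99 ± 0.39, and at 0.81 ± 0.39 under median-ratio scaling, where its unadjusted limma p became 0.0528. MLXIPL was at 0.79 ± 0.27 in week 50 high and at 0.58 ± 0.27 in week 50 low layers, with unadjusted limma p-values of 0.00805 and 0.0429. Thus 2 of the 8 genes were higher at an unadjusted p under 0.05 in each week 50 group, against 8.49% of all tested genes in high and 6.72% in low layers. Median-ratio scaling lowered this count to 1 in both groups. In week 50 low layers, where MLXIPL lay near the threshold, fitting only the compared groups or dropping the 3 most distant libraries also gave 1. So did leaving out week 32 replicate 3 or 4, or week 50 low replicate 2, 3 or 4. Higher values with no overlap were found for 3.04% of all tested genes in low layers, and 0% were called in either comparison. Median-ratio scaling moved the median over all tested genes from 0.13 to -0.02 in week 50 high layers.

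In week 72 high layers 0 of the 8 genes had an unadjusted limma p under 0.05 against week 32, while 5.22% of all tested genes did in either direction and 0.00781% were called. In week 72 low layers ACACA was lower by 1.14 ± 0.30, with no overlap, FASN by 1.70 ± 0.59 and ACLY by 0.58 ± 0.22, and THRSPB was higher, at 1.01 ± 0.39 (log2 scale, SE). The unadjusted limma p-values were 0.00107, 0.00929, 0.0163 and 0.0184 in that order. Of all tested genes, 4.40% were lower and 3.29% were higher at an unadjusted p under 0.05, 1.83% were lower with no overlap and 0% were called. ACACA was called without week 72 low replicate 3, at -1.37 with an adjusted limma p of 0.0409, as were 71 of the 12746 genes tested in that setting. That library held the highest ACACA of its group, and ACACA was not called when any other single library was left out. Without the 3 libraries least like the others FASN was at -0.98 ± 0.40 and THRSPB at 0.63 ± 0.34.

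Pairs of the 8 genes were then compared over the 20 libraries on the log2(TPM + 1) scale, which gave 28 pairs. Pearson's r ranged from -0.36 for ACSS2 and THRSP to 0.77 for ME1 and THRSP, with a median of 0.14. ME1 and THRSP had an r of 0.77 (permutation p adjusted over the 28 pairs 0.00392, n = 20) and a Spearman's rho of 0.78 (permutation p adjusted 0.00448). Their r was 0.73 for deviations from the group means and 0.72 without the 2 libraries farthest from the median of ME1. This was the pair that held by both measures.

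ACLY and FASN had an r of 0.76 (permutation p adjusted 0.00602, n = 20), which was 0.34 without the 2 libraries farthest from the median of ACLY, and a rho of 0.46 (permutation p adjusted 0.397). ACLY and ACACA had an r of 0.68 (permutation p adjusted 0.0156, n = 20), 0.41 without the 2 farthest libraries, and a rho of 0.49 (permutation p adjusted 0.397). Both relations rest on those libraries. Deviations from the group means gave r of 0.66 for ACLY and FASN and of 0.46 for ACLY and ACACA, which then no longer passed (permutation p adjusted 0.253). The consecutive enzymes ACACA and FASN had an r of 0.56 (permutation p adjusted 0.210), and 0.06 without the 2 farthest libraries. The neighbours THRSP and THRSPB had an r of 0.33 (permutation p adjusted 0.490) and a rho of 0.33 (permutation p adjusted 0.506). Adjacent pairs of tested genes had a median r of 0.31, and 51.4% of them had a lower r than THRSP and THRSPB.

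**Figure D4:**
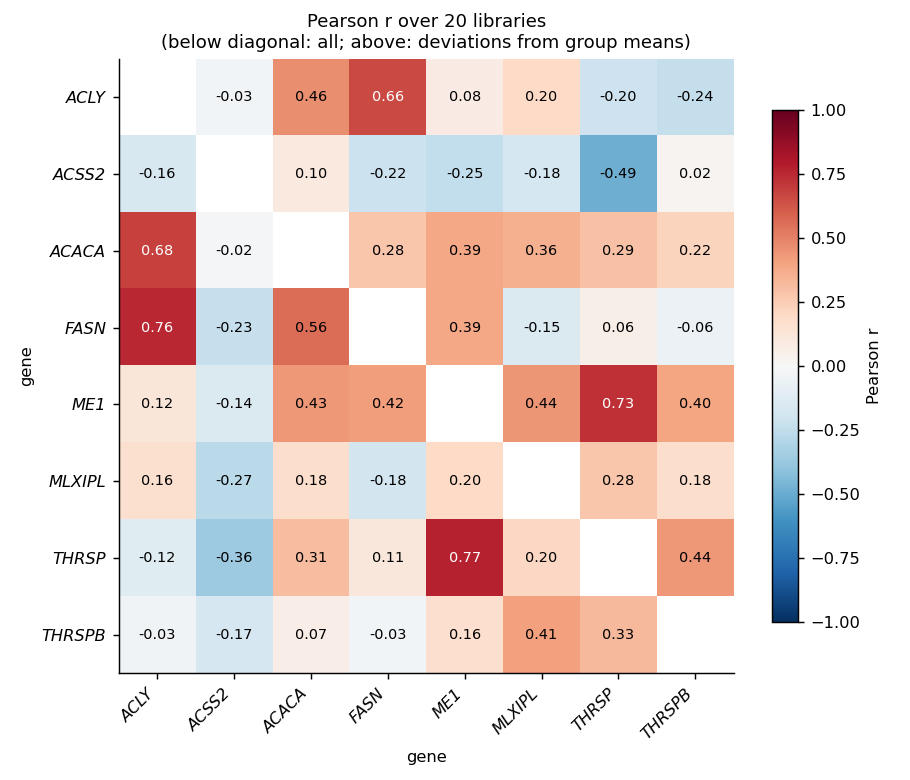
Pearson's r of log2(TPM + 1) over the 20 libraries for each of the 28 pairs of the 8 genes, as a coloured matrix with the value in each cell. Cells below the diagonal give r of the values themselves, and cells above it give r of deviations from the group means. Below the diagonal the highest cell is ME1 with THRSP, at 0.77, and the lowest is ACSS2 with THRSP, at -0.36. Above the diagonal the same pairs are highest and lowest, at 0.73 and -0.49.

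The genes beside each of the 8 on its chromosome were read from the RefSeq table of the same build. Before THRSPB, 3401 bases away at positions 192745396 to 192746139 of chromosome 1, lies LOC101748650, a protein-coding gene without a name in that table. Its levels ran from 29.4 to 195 TPM and had an r of 0.89 and a rho of 0.87 with THRSPB over the 20 libraries, or 0.76 for deviations from group means. Of adjacent pairs of tested genes, 99.3% had a lower r. LOC101748650 was also lower in week 50 high than low layers, by 0.79 ± 0.35 on the log2 scale (SE, unadjusted limma p 0.0361), and it was higher in week 50 low layers than at week 32, at 1.71 ± 0.35. With THRSP its r was 0.54. Whether the 2 genes share reads is not known from the files, so the likeness is a description. On chromosome 18, FASN and CCDC57, which ends 1518 bases before it, had an r of 0.82, with CCDC57 at 0.0390 to 11.4 TPM and at its lowest in week 72 low replicate 2, where FASN was lowest too.

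For 3 of the 8 genes an overlapping gene was measured. TADA2A had an r of 0.70 with ACACA, TTC25 had an r of 0.59 with ACLY, and LOC107053112, which lies inside ME1, had an r of 0.55 with ME1. Of adjacent pairs of tested genes, 90.8%, 81.7% and 78.2% had a lower r than these, in that order. Whether the counting used strand is not known, so shared reads cannot be told apart from shared variation for these pairs. AATF, beside ACACA, and DUS1L, beside FASN, had r of -0.18 and -0.01.

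**Figure D5:**
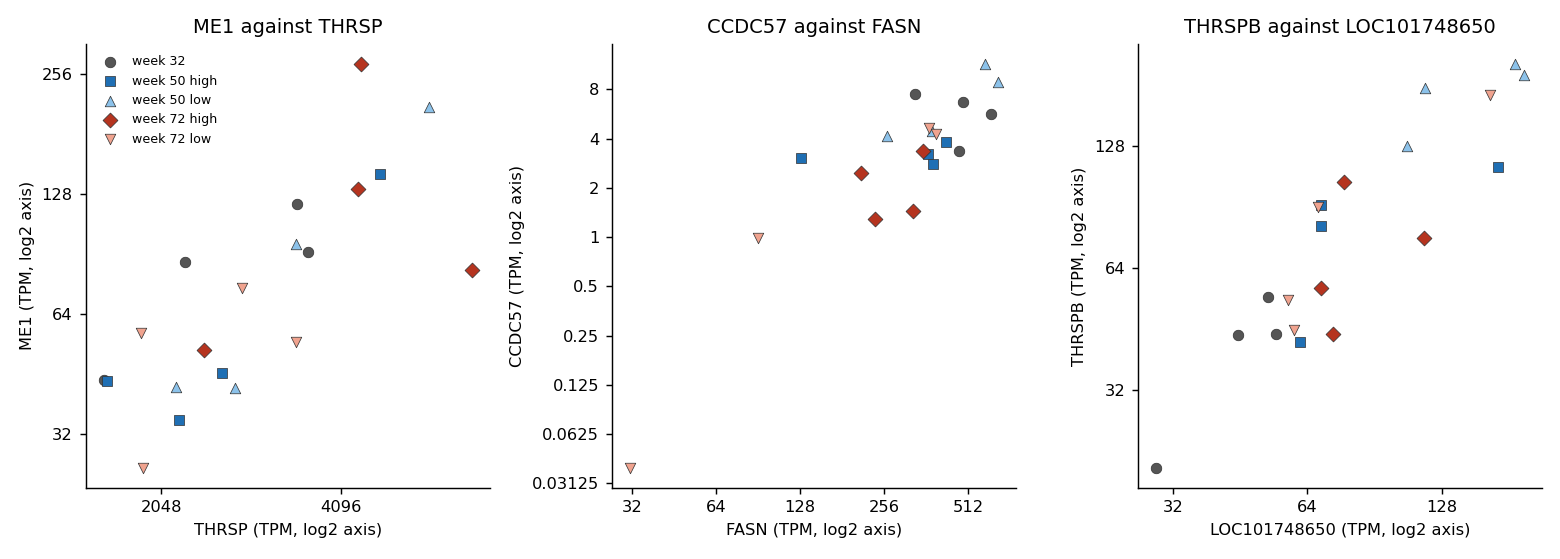
TPM of ME1 against THRSP, CCDC57 against FASN and THRSPB against LOC101748650 on log2 axes, with 1 point per library coloured and shaped by group. The r on the log2(TPM + 1) scale is 0.77, 0.82 and 0.89, and 1 week 72 low library lies far below the rest for both CCDC57 and FASN.

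The 3 genes most like each of the 8 by Pearson's r over 20 libraries were taken. The search covered tested genes outside the 8 whose symbol does not start with LOC. It therefore leaves out the r of 0.77 between ME1 and THRSP. For ACACA these were SCD, the stearoyl-CoA desaturase that acts on the product of FASN, at 0.86, FAM20CL at 0.82 and SC5D, a sterol desaturase, at 0.81. For ACLY they included ABCA9 at 0.79 and SCD at 0.79. For ME1 they were TBCA, a tubulin-folding cofactor, at 0.84, ELOVL6, which elongates palmitate, at 0.75, and CNP1 at 0.72. TBCA was also the gene most like THRSP, at 0.83, followed by CHCHD6 at 0.75 and ANKRD33B at 0.75.

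For FASN the closest genes were ACTA2 at 0.84, MMP24 at 0.83 and CCDC57 at 0.82, and for MLXIPL they were SULT1E1, a sulfotransferase of estrogens, at 0.85, DBNL at 0.82 and SNRPE at 0.81. THRSPB was closest to HINT2 at 0.75, MRPL46 at 0.74 and GSTO2 at 0.73, and ACSS2 to AMPH at 0.78, ACCS at 0.73 and SARM1 at 0.70. The gene closest to THRSPB by this rule had a lower r than its unnamed neighbour. Each is the highest r among the tested genes with a symbol and carries no test.

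The surrounding pathway was read from lists, which were also chosen with earlier results of these data known, so their counts are descriptions. At week 72, 6 of 17 tested genes of elongation, desaturation and esterification were higher in high layers at an unadjusted limma p under 0.05. Of the 17, 0 were lower, while 3.65% of all tested genes were higher. The 6 genes were FADS2 at 1.51 ± 0.37, ELOVL2 at 2.47 ± 0.60, FADS1 at 1.18 ± 0.31, SCD at 3.42 ± 0.93, ELOVL6 at 0.94 ± 0.43 and GPAM, the first acyltransferase of glycerolipid synthesis, at 0.75 ± 0.35 (log2 difference, SE). The list's median was 0.49, against 0.03 over all tested genes, and none was called over all genes.

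SCD showed the pattern library by library: it was at 22.9, 26.5, 1458 and 359 TPM in week 72 low layers and at 509, 1772, 2254 and 2249 TPM in week 72 high layers. Its lowest libraries, week 72 low replicates 1 and 2, were those in which FASN was also lowest. At week 50 none of the 17 genes reached an unadjusted p under 0.05. Between week 50 and week 72 in low layers, 8 of the 17 were lower at that threshold and 0 higher, while 6.60% of all tested genes were lower. In that comparison 845 of all tested genes were lower and 247 higher, and under median-ratio scaling 658 were lower and 493 higher.

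Single genes of other lists reached the same threshold at week 72, where 3.65% of all tested genes were higher. Of 11 tested genes of citrate and carbon supply, SLC25A1, the mitochondrial citrate exporter, was higher at 0.41 ± 0.18 and ACO1 at 0.52 ± 0.24 (log2 difference, SE), with unadjusted limma p-values of 0.0319 and 0.0405. Of 18 regulators, 9 were higher and 9 lower in sign. Among them SREBF2, the sterol-responsive factor, was higher at 1.11 ± 0.28, and INSIG1, which retains it in the endoplasmic reticulum, at 0.90 ± 0.41. Of 8 tested target genes of MLXIPL, PNPLA3 was higher at 1.52 ± 0.54 and GPD1 at 1.61 ± 0.67, while at week 50 SLC2A2, the hepatic glucose transporter, was higher at 0.81 ± 0.37 in a comparison in which 1.99% of all tested genes were. None of these genes was called by limma over all genes.

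SREBF1, the lipogenic member of its family, ranged from 13.9 to 59.8 TPM. In high minus low it was at -0.38 ± 0.28 at week 50 and at -0.57 ± 0.28 at week 72 (log2 difference, SE). Against week 32 it was at 0.69 ± 0.28 in week 50 high and 1.07 ± 0.28 in week 50 low layers. The week 72 counterparts were 0.25 ± 0.28 in high and 0.83 ± 0.28 in low layers. Its r was -0.29 with FASN and -0.25 with ACACA over the 20 libraries. The vitellogenin VTG2, the main yolk protein precursor, was at 725, 95.1, 13572 and 241 TPM in the 4 week 72 low libraries. The 3 libraries with low VTG2, replicates 1, 2 and 4, were those in which ACACA lay under every other library, and the r of ACACA with VTG2 over the 20 libraries was 0.69, the rho 0.48 and the r of deviations from group means 0.28. FASN was low in replicates 1 and 2 but at 392 TPM in replicate 4. Its r with VTG2 was 0.64, its rho 0.19 and its r of deviations from group means 0.50. Of the 7 yolk precursor genes listed as a readout of laying, 6 were higher in week 72 high than low layers at an unadjusted limma p under 0.05 and 0 lower. Of all tested genes, 3.65% were higher at that threshold. The groups overlapped for each of the 6 genes. The median log2 difference of the 7 genes was 4.04, and none was called over all genes.

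Markers of other cells were summed per library. Adipocyte markers, of which 7 of the 8 listed were measured and 0 were at 0 throughout a group, summed to between 185 and 559 TPM. Of their defining genes ADIPOQ and FABP4 were near 0, at no more than 1.42 and 2.32 TPM, and PLIN1 was at 3.17 to 94.5 TPM. The adipocyte sum was lower in week 50 low layers, at 185 to 283 TPM, than in week 50 high layers, at 321 to 559 TPM, where THRSPB differed in the opposite direction. The markers did not move together: of the 6 tested, 3 were higher and 3 lower in week 50 high than low layers. Of these, 1 was higher at an unadjusted limma p under 0.05, as were 1.99% of all tested genes. Erythroid markers, of which 4 of the 6 listed were measured, summed to between 154 and 3781 TPM in week 50 low and between 192 and 290 TPM in week 50 high layers. All 3 tested erythroid genes were lower in week 50 high layers at an unadjusted limma p under 0.05, as were 0.976% of all tested genes. At week 32 they summed to between 167 and 369 TPM, in week 72 high layers to between 664 and 946 TPM and in week 72 low layers to between 790 and 1503 TPM. All 3 were higher in week 72 low layers than at week 32 at an unadjusted limma p under 0.05, as were 3.29% of all tested genes. Their median log2 difference was 1.98, in the comparison in which ACACA and FASN were lower and THRSPB was higher. All 3 also passed that threshold in week 72 high layers against week 32 (median 1.56) and against week 50 high layers (median 1.78). Of the 12808 tested genes, 374 were higher at it in the first of these comparisons and 75 in the second. In both of those comparisons 0 of the 8 genes passed it. All 7 endothelial markers were lower in week 50 low layers than at week 32. Of these, 3 had an unadjusted limma p under 0.05, while 280 of the 12808 tested genes were lower at it. From week 50 to week 72 in low layers, 3 were higher and 0 lower at that threshold, and 247 of all tested genes were higher. All 7 stellate markers were lower in week 72 low layers than at week 32, 2 of them at that threshold, as were 4.40% of all tested genes. Exocrine pancreas markers stayed at or under 1.12 TPM in sum. The part of these markers in the differences above was not tested.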

How the data were processed

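Liver mRNA of 20 libraries was measured, 4 in each of 5 groups taken from the library titles. The authors deposited a single table of TPM per gene; the submitters' processing notes name the build GRCg7b. The aligner, counting tool, annotation and strand setting were not given in the sources used here, and any filter of the authors is likewise unknown. TPM keeps no read depth, so no counting error is available and the number of libraries limits the precision.

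Tests covered the 12808 of 21749 genes that reached 1 TPM in 4 or more libraries and were run on log2(TPM + 1), a scale that understates changes of low genes. One model with a mean per group (15 residual degrees of freedom) was fitted with limma 3.58.1 in R 4.3.3, with a mean-variance trend, two-sided, and Benjamini-Hochberg adjustment over all tested genes. Calls needed an adjusted p under 0.05. The fit was tested on simulated data. Correlations used 100000 permutations, two-sided, in NumPy 2.4.6, with ranks from SciPy 1.17.1. Gene positions came from a RefSeq table of the same build, which held 20888 of the symbols.

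The members and gene lists were chosen with earlier results of these data known. The genes named are the 8 members, the 3 genes outside the 8 most like each, and VTG2 and SREBF1 as context. Members of other lists at an unadjusted p under 0.05 between laying classes at either age are named too. A gene that this rule selects is not reported here. LOC101748650, CCDC57 and the other chromosomal neighbours were named by position, after their values were seen. Tried as alternatives were pseudocounts of 0.1 and 5, other filters, median-ratio scaling, no trend, fits on the compared groups alone, a replicate block, and leaving out single libraries or the 3 least like the others.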

Additional observations from a re-analysis of the deposited data

Results flagged for a closer look

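In 2 of 40 sets of 4 libraries (8 genes in 5 groups) a library stood apart from the other 3 by more than Dixon's critical share of the range, and chance alone gives about 1 in 20. For ACACA at week 32 the highest library, replicate 2, was at 243 TPM, and the gap to the next was 0.916 of the group's range. For ME1 in week 50 high layers the highest library, replicate 4, was at 143 TPM, and the gap was 0.901 of the range. That library also held the highest THRSP of its group, 4762 TPM.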

How the results depend on the processing

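With 4 libraries a group and unknown depth, small differences could not be resolved. Outside the settings that leave out 1 library, 426 values kept their direction and their side of the threshold and 6 changed sign. Under median-ratio scaling ACSS2 in high minus low at week 50 was -0.0200, and ACACA and FASN in week 72 minus week 50 high layers were 0.0199 and 0.0254. Leaving out the 3 most distant libraries gave -0.22 for ACSS2 at week 50, and 0.15 for THRSPB and 0.0904 for MLXIPL in high minus low at week 72. The cause was not tested.

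Leaving out 1 library at a time, high minus low at week 50 ranged from -0.13 to 0.0865 for ACLY, from -0.11 to 0.13 for ACACA, from -0.22 to 0.30 for ACSS2 and from -0.90 to 0.0230 for ME1. At week 72 it ranged from -0.33 to 0.53 for ACSS2, from -0.49 to 0.15 for THRSPB and from -0.28 to 0.11 for MLXIPL. The difference between ages ranged from -0.38 to 0.48 for ACSS2, and FASN between ages in high layers from -0.50 to 0.0685. The number of the 8 genes called ranged from 0 to 1 in week 72 minus week 50 low layers and in week 72 low minus week 32, being 1 (ACACA) without week 72 low replicate 3. In that setting 95 and 71 of 12746 tested genes were called in these comparisons. At an unadjusted p under 0.05 the number ranged from 1 to 3 in high minus low at week 72, from 0 to 4 (2 with all libraries) in the difference between ages, from 0 to 2 in week 72 minus week 50 high layers, from 0 to 1 in week 72 high minus week 32 and from 1 to 4 in week 72 low minus week 32. The number ranged from 1 to 2 in each week 50 group against week 32. For the difference between ages it was 1 with median-ratio scaling, without a filter, with the compared groups alone and without the 3 most distant libraries. The number of correlated pairs ranged from 1 to 3, and it was 1 without week 72 low replicate 1 and 1 with Spearman's rho, an alternative chosen after seeing the data.

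Median-ratio scaling moved the split of genes higher and lower at an unadjusted p under 0.05 from 255 and 125 to 188 and 212 in high minus low at week 50, and from 467 and 208 to 459 and 374 at week 72. In week 72 minus week 50 it moved from 75 and 513 to 200 and 321 in high layers, and from 247 and 845 to 493 and 658 in low layers. Against week 32 it moved from 1088 and 196 to 579 and 533 in week 50 high layers, and from 861 and 280 to 610 and 574 in week 50 low layers.

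With the replicate number as a block no call changed (THRSPB in high minus low at week 50 was -1.15 ± 0.37), and the number of the 8 genes with an unadjusted limma p under 0.05 moved from 1 to 3 in high minus low at week 72, from 0 to 2 in week 72 minus week 50 high layers and from 0 to 1 in week 72 high minus week 32. Whether same-numbered libraries share more than a number is not stated. Their 40 pairs had deviations with a median correlation of 0.03 (-0.27 to 0.28), and 14 of them were above 0.1. The 120 pairs of different numbers had a median of -0.01, and 19 were above 0.1. For both ME1 and THRSP, replicate 1 lay below its group mean on the log2(TPM + 1) scale in each of the 5 groups. The part of replicate number in their correlation was not tested.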

Other observations

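Other lists around the pathway were counted between laying classes. At week 72 an unadjusted limma p under 0.05 was reached by 0 of 6 tested genes of NADPH supply and 0 of 6 genes of cofactors. It was reached by 0 of 8 genes of malonyl-CoA turnover and the AMP-activated kinase pathway. The counts were also 0 of 11 genes of insulin signalling and 0 of 6 genes of mitochondrial fatty acid synthesis. At week 50 they were 0 in each of these lists too. Over all 12808 tested genes 467 were higher and 208 lower at week 72, and 255 higher and 125 lower at week 50, so counts of 0 in lists of this size are near the background. None of these genes was called over all tested genes.

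MID1IP1, a relative of THRSP that binds ACACA and promotes its assembly into filaments, was chosen after its values were seen. It ranged from 7.57 TPM in week 32 replicate 2 to 142 TPM in week 50 low replicate 2. Its libraries spread widely within groups, as in week 50 high layers, where they held 75.3, 11.9, 44.8 and 57.8 TPM.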
